A study of Drosophila melanogaster with 6 samples.

Results

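Bomanins are small secreted peptides of the Drosophila immune response, and 8 probe sets on the arrays examined here each name 1 Bomanin gene and no other gene. They were chosen by the gene symbol alone, a name beginning with Bom followed by S, T or Bc and a number, out of 11982 genes with a probe set of their own. They comprise 4 genes of the short form (BomS2, BomS4, BomS5 and BomS6), 2 of the tailed form (BomT2 and BomT3) and 2 of the bicipital form (BomBc2 and BomBc3). Of the 12 Bomanin genes in the RefSeq gene table, the other 4 (BomS1, BomS3, BomT1 and BomBc1) had no probe set named for them in the annotation used and were not analysed here.

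Bomanins are induced when the Toll receptor is activated, mainly in the fat body, the insect counterpart of liver and adipose tissue, from which they pass into the hemolymph. A short Bomanin consists of little more than the conserved Bomanin motif after its signal sequence. A tailed Bomanin carries the motif followed by a further stretch, and a bicipital Bomanin carries a pair of motifs joined by a linker. Flies that lack the main Bomanin cluster survive infection by fungi and many Gram-positive bacteria poorly. Hemocytes, the circulating blood cells, also make immune peptides, though in smaller amounts than fat body.

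The RNA came from hemocytes of wandering Drosophila melanogaster larvae of the last instar, and the study asked which genes and pathways differ in hemocytes that express Idh-R195H, the fly equivalent of a mutation in human IDH1 that is found in cancers. All samples carried hml-Gal4, a driver active in most larval hemocytes, and UAS-2xEGFP, which marks them with green fluorescence. The 3 Idh-R195H samples carried UAS-Idh-R195H in addition, whereas the 3 control samples carried no further transgene, so no sample expressed unmutated Idh from the driver. Each sample was a pool of circulating hemocytes from 400 larvae grown at 29 °C and harvested on day 7, bled so as to leave the lymph gland in place, and was hybridised to 1 single-colour array. The samples are labelled as biological replicates, without a statement of how the pools were separated, so the p-values measure the spread between these pools.

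The Idh probe set had intensities of 3804.8, 4006.0 and 4292.8 in control and 11051.3, 9490.5 and 9359.7 in Idh-R195H samples, the direction that the labels imply. The values were linear probe set intensities scaled to a common mean per array. Array medians lay between 76.0 and 106.5. Intensities under 100 made up 48.8% to 54.0% of each array. No detection call was used, and the number of arrays limited the precision. Of 18769 probe sets tested, 584 (3.11%) changed at an adjusted p below 0.05 in limma, 1.9% upward and 1.21% downward, and the median over all was -0.11 on the log2 scale. The control arrays also differed from the Idh-R195H arrays in their technical controls and in markers of other tissues. Their ratio of 3' to 5' signal for Act5C, which rises with RNA degradation or incomplete copying, was 3.72 to 6.17 against 2.13 to 2.39 in Idh-R195H. Their summed intensity over 6 salivary gland markers was 23143.3 to 229873.1 against 990.8 to 4913.8, and their largest intensity was 52842.5 to 56234.5 against 37577.7 to 40283.0.

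Bomanin probe sets were dim on the control arrays and brighter on the Idh-R195H arrays. All 8 had a positive log2 fold change, from 2.18 for BomT3 to 6.67 for BomS2, as did 43.1% of all probe sets. Their median was 2.82, against -0.11 over all probe sets. All 8 log2 fold changes were above 2, as were 1.63% of all probe sets. For 7 of the 8 genes every Idh-R195H array lay above every control array, which held for 12.6% of all probe sets. The increase passed the test for BomS2 and BomS5, 2 of 8 genes, where 1.9% of all probe sets passed upward (limma, adjusted over all probe sets). Without adjustment, 7 of 8 had a p below 0.05 and a higher level, against 8.4% of all probe sets. BomBc2 missed the threshold narrowly, with an adjusted p of 0.0512. Control values were mostly below the middle of each array: 2, 1 and 0 of the 8 probe sets exceeded the array median in control replicates 1, 2 and 3. In Idh-R195H replicates 1, 2 and 3 the numbers were 5, 8 and 8. The folds below therefore rest on dim control values, and the constant of 1 added before taking logarithms affects them.

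**Figure D1:**
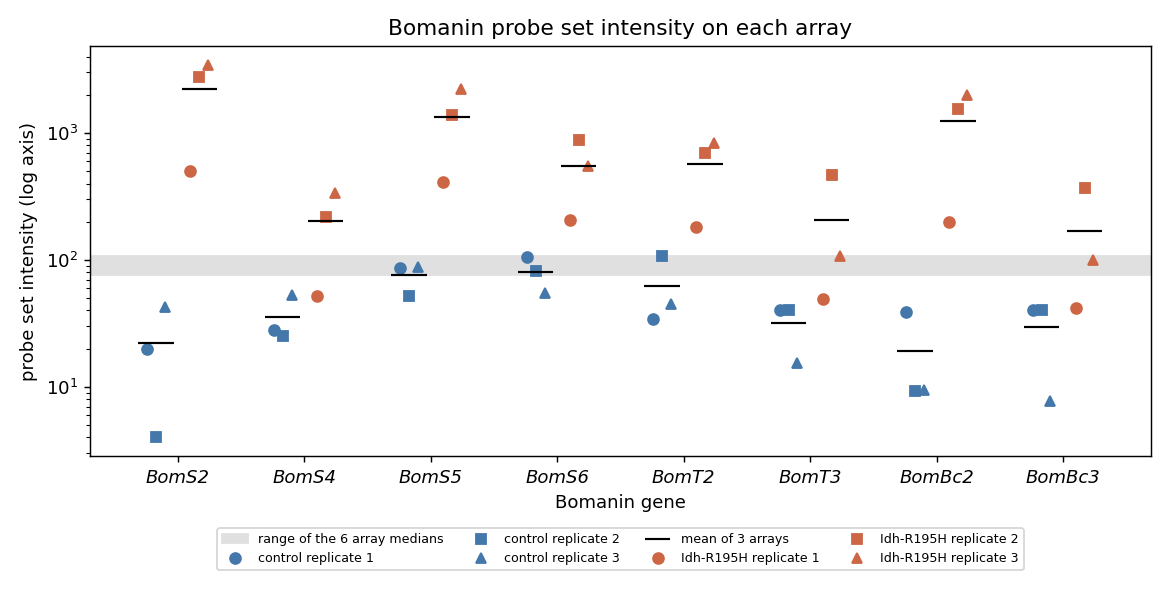
Intensity (log axis) of each Bomanin probe set on each of the 3 control arrays (blue) and 3 Idh-R195H arrays (orange), with a line at each group's mean and a grey band for the range of the 6 array medians. Control values lie in, close to or below the band, and Idh-R195H replicate 1 (circle) is the lowest Idh-R195H value for all 8 genes.

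Among the short Bomanins, BomS2 (CG18106), one of the most abundant Bomanins in hemolymph after infection, had intensities of 19.9, 4.0 and 42.6 in control replicates 1 to 3 and of 502.1, 2750.1 and 3459.3 in Idh-R195H replicates 1 to 3. The groups were far apart, with the lowest Idh-R195H array above every control array. BomS2 rose by a log2 fold change of 6.67 ± 1.07 (SE, n = 3 per group; 95% interval 4.04 to 9.29; limma adjusted p = 0.0371). Only 2 of the 18769 probe sets had a larger log2 fold change, a rank that depends on the dim control values. BomS5 (CG15065) had intensities of 86.9, 51.7 and 88.1 in control and 413.8, 1377.2 and 2227.2 in Idh-R195H samples, again without overlap. It rose by a log2 fold change of 3.86 ± 0.66 (SE), a 14.6-fold increase (limma adjusted p = 0.0432).

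The BomS2 call was lost on leaving out any 1 array, with adjusted p from 0.0599 without control replicate 3 to 0.144 without Idh-R195H replicate 2 (limma), while its log2 fold change stayed between 5.80 and 7.54. The BomS5 call held without Idh-R195H replicate 1 (limma adjusted p = 0.0433) and was lost without any 1 of the other 5 arrays, with adjusted p up to 0.163 and log2 fold changes from 3.34 to 3.99.

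BomS6 (CG15068) had intensities of 106.1, 81.4 and 54.5 in control and 206.3, 888.7 and 548.8 in Idh-R195H samples. The groups did not overlap, and the log2 fold change was 2.56 ± 0.59 (SE), without passing (limma adjusted p = 0.0895). BomS4 (CG18107) was the Bomanin whose groups overlapped: its control intensities were 28.3, 25.4 and 52.8, and those in Idh-R195H samples were 51.9, 217.2 and 337.8. The overlap was slight, between Idh-R195H replicate 1 and control replicate 3, and the log2 fold change was 2.19 ± 0.74 (SE; limma adjusted p = 0.182). BomS4 overlaps its neighbour BomBc2 in the gene table, and whether their probes share transcripts was not tested.

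The bicipital gene BomBc2 (CG15067) had intensities of 38.7, 9.3 and 9.5 in control and 198.3, 1538.8 and 1985.8 in Idh-R195H samples. Its groups were separated much as those of BomS2, with a log2 fold change of 5.71 ± 1.04 (SE; 95% interval 3.16 to 8.26; limma adjusted p = 0.0512). Its adjusted p fell below 0.05 without Idh-R195H replicate 1 (0.0493, limma) and was as high as 0.175 without Idh-R195H replicate 2. The tailed gene BomT2 (CG16836) had intensities of 34.0, 108.1 and 44.7 in control and 182.8, 692.3 and 831.8 in Idh-R195H samples. They did not overlap, and the log2 fold change was 3.08 ± 0.72 (SE; limma adjusted p = 0.0927).

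BomT3 (CG5778) and BomBc3 (CG5791) lie beside each other on chromosome arm 3R, apart from the other 10 Bomanin genes, which lie next to one another on arm 2R in the RefSeq table. BomT3 had intensities of 40.0, 40.0 and 15.3 in control and 49.0, 465.9 and 108.3 in Idh-R195H samples. BomBc3 had intensities of 40.6, 40.0 and 7.8 in control and 42.2, 366.8 and 100.6 in Idh-R195H samples. For both genes the groups were separated only narrowly, because Idh-R195H replicate 1 lay just above the brightest control array. Their log2 fold changes were 2.18 ± 0.88 (SE; limma adjusted p = 0.246) for BomT3 and 2.25 ± 0.98 (SE; limma adjusted p = 0.278) for BomBc3, and neither passed.

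**Figure D2:**
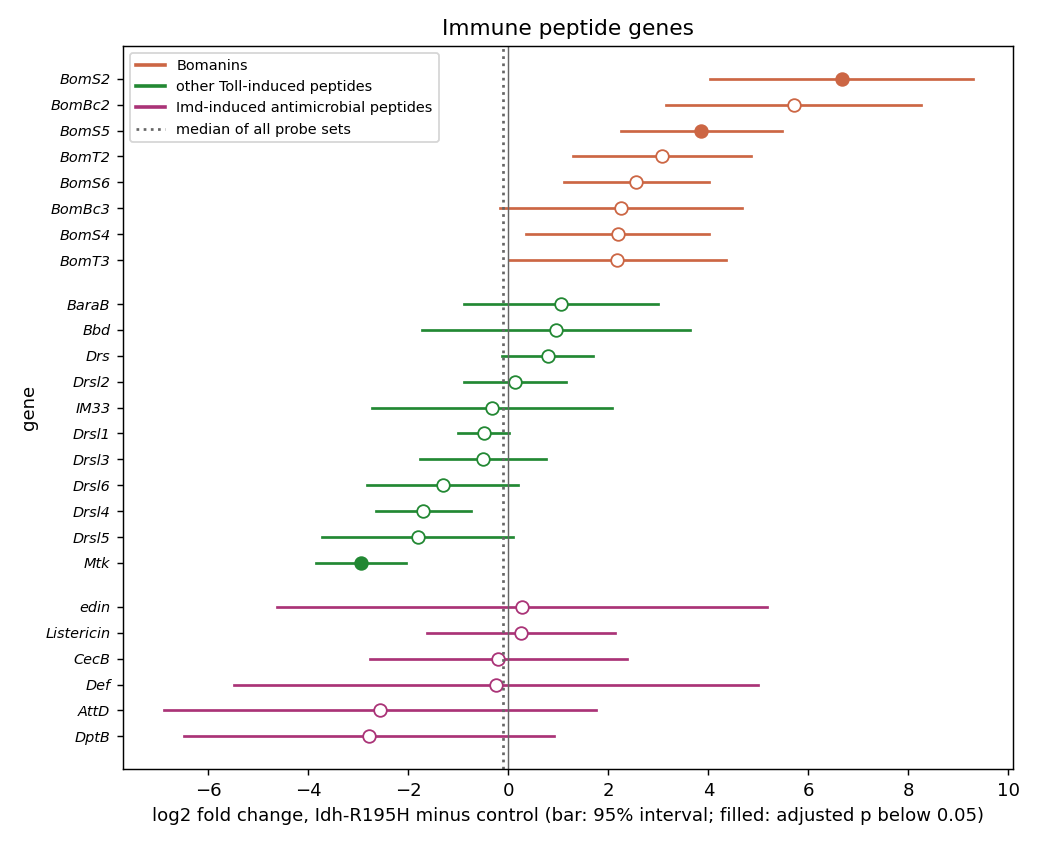
Log2 fold change (Idh-R195H minus control, 3 arrays each) with its 95% interval from limma for the Bomanins and for the other immune peptide genes measured, where filled points have an adjusted p below 0.05. All 8 Bomanins lie at or above 2.18, whereas Mtk lies at -2.95.

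The Bomanins varied among the Idh-R195H pools more than most genes did. Idh-R195H replicate 1 had the lowest intensity of the 3 for all 8 genes and was under 50% of each of the other 2 arrays for all 8. Over all probe sets replicate 1 was lowest for 31.5% and under 50% of both others for 6.04%. The median SD of the log2 values among Idh-R195H arrays was 1.46 over the Bomanins and 0.26 over all probe sets. Among control arrays it was 0.81 and 0.51. BomS2 was 5.48 times as bright in replicate 2 and 6.89 times as bright in replicate 3 as in replicate 1, and BomBc2 was 7.76 and 10.0 times as bright.

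The pair on 3R had a different pattern among the pools. BomT3 was 9.52 times and BomBc3 8.68 times as bright in replicate 2 as in replicate 1, but in replicate 3 these ratios were 2.21 and 2.38. Replicate 3 was the brightest Idh-R195H array for 5 of the genes on 2R, while replicate 2 was the brightest for the 3R pair and for BomS6. With 1 array per pool these patterns are descriptions of single arrays and were not tested.

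**Figure D3:**
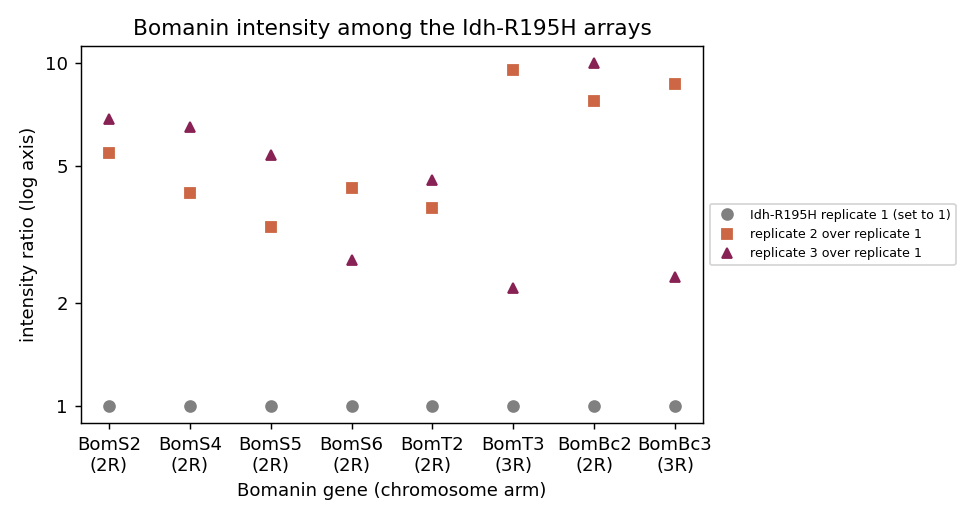
Intensity of each Bomanin in Idh-R195H replicates 2 and 3 divided by that in replicate 1 (log axis), with the chromosome arm of each gene. Every ratio is above 2, and for BomT3 and BomBc3 on 3R replicate 2 stands well above replicate 3.

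Marker genes of other tissues also differed between the arrays, and fat body is the main known source of Bomanins. The summed intensity of 5 measured fat body markers (Fbp1, Fbp2, apolpp, Lsp2 and Apoltp) was 44670.0, 122973.4 and 101889.4 in control and 6618.5, 19458.7 and 56262.9 in Idh-R195H replicates 1 to 3. None of the 5 was listed at 0, and all 5 had log2 fold changes below 0 (median -1.98), as did 10681 of all 18769 probe sets. Apoltp, at -0.09, was close to the median of -0.11 over all probe sets. None of the 5 passed in limma after adjustment, and 1 had an unadjusted p below 0.05, a share near the 20.2% of all probe sets. Every control array thus carried more fat body marker signal than Idh-R195H replicates 1 and 2, and control replicates 2 and 3 more than any Idh-R195H array, while the sum over the Bomanins was 394.4, 359.9 and 315.4 in control and 1646.3, 8297.2 and 9599.7 in Idh-R195H samples. Among the Idh-R195H pools, replicate 1 was lowest in both sums and replicate 3 highest in both.

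General hemocyte and lamellocyte markers did not follow that order, whereas crystal cell markers did. The sum over 11 general hemocyte and plasmatocyte markers was 118016.5, 113773.1 and 116057.3 in Idh-R195H replicates 1 to 3 and 105342.8 to 174229.9 in control. None of the 11 passed in limma after adjustment, and 3 had an unadjusted p below 0.05, against 20.2% of all probe sets. The sum over 9 markers of lamellocytes, hemocytes that wrap foreign bodies such as wasp eggs, was 90055.7, 91628.6 and 81214.5 in Idh-R195H and 7312.9 to 10048.1 in control, with 7 of 9 passing upward against 1.9% of all probe sets. The sum over 6 crystal cell markers was 29620.5, 45363.4 and 49930.0 in Idh-R195H replicates 1 to 3 and 64815.4 to 66757.3 in control. PPO1 and PPO2 were by far the brightest of the 6, with control means of 28253.1 and 34029.7. Log2 fold changes were positive for 1 of the 6 and negative for 5. CG17109 passed upward (log2 fold change 2.7, limma adjusted p = 0.0398) and fok downward (-2.04, limma adjusted p = 0.0306). Of all probe sets, 1.9% passed upward and 1.21% downward. The sum over 15 midgut markers was 547.4 to 2359.2 in Idh-R195H and 2864.7 to 74474.5 in control. Of the 15, 3 had a positive and 12 a negative log2 fold change, and none passed in limma, against 3.11% of all probe sets. No marker of any list was at 0. Idh-R195H replicate 1 was the lowest Idh-R195H array for 31.5% of all probe sets. Gene by gene, it was lowest for 5 of 5 fat body, 6 of 6 salivary gland, 13 of 15 midgut and 6 of 6 crystal cell markers. It was lowest for 1 of 11 general hemocyte and plasmatocyte markers and 1 of 9 lamellocyte markers. The part of these differences, of the Act5C ratio and of the salivary gland signal in the Bomanin values was not tested. In pooled RNA, more cells of a type and more RNA per cell cannot be told apart.

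**Figure D4:**
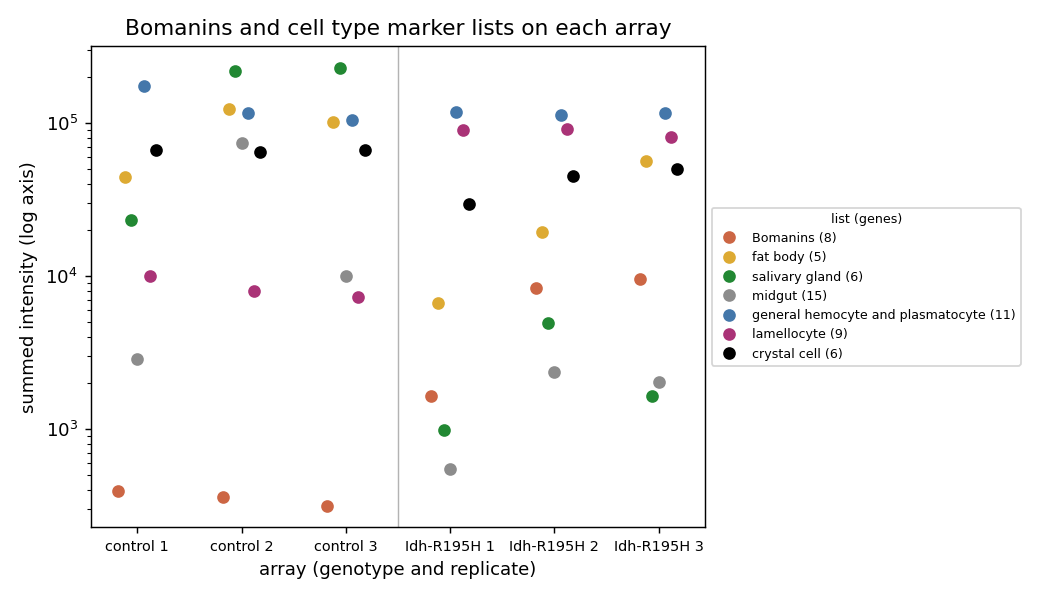
Summed intensity (log axis) of the 8 Bomanins and of each cell type marker list on each array, with the number of genes in brackets. Bomanins are higher on the Idh-R195H arrays while fat body, salivary gland and midgut sums are highest on control arrays, and within Idh-R195H the lamellocyte and general hemocyte sums stay nearly level.

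A list of other immune peptide genes, among them the Toll targets Drs and Mtk, went in both directions. It also held BaraB, Bbd, IM33 and the drosomycin-related genes Drsl1 to Drsl6. Whether Toll signalling induces each of these in hemocytes was not tested. Of 11 measured genes, 4 had positive and 7 had negative log2 fold changes (median -0.49). None passed upward and 1 passed downward, where 1.9% and 1.21% of all probe sets did, and 2 had an unadjusted p below 0.05, against 20.2% of all probe sets. That gene was Mtk, which encodes the antifungal peptide metchnikowin and also answers to Imd signalling. Its intensities were 15180.9, 14741.8 and 19823.4 in control and 1421.8, 3355.3 and 2006.3 in Idh-R195H samples, so that the groups were far apart. Mtk fell by 2.95 ± 0.37 (SE) on the log2 scale (limma adjusted p = 0.0205), a call that held without control replicate 1 (0.0383, limma) and was lost without any 1 of the other arrays, with adjusted p up to 0.0858. Among the genes related to drosomycin, Drsl4, Drsl5 and Drsl6 had log2 fold changes of -1.70 ± 0.39, -1.81 ± 0.77 and -1.31 ± 0.61 (SE), none passing. Drsl1, Drsl2 and Drsl3 were at -0.49, 0.14 and -0.51, also without passing. Outside the Drsl genes, Drs, BaraB and Bbd had positive log2 fold changes and IM33 and Mtk negative ones.

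Values of 3 further genes of that group were taken up after they had been seen. Drs, which encodes the antifungal peptide drosomycin and is a standard readout of Toll signalling, was bright in both genotypes, with 6998.2, 3734.2 and 5224.3 in control and 5972.4, 11097.6 and 10650.6 in Idh-R195H samples. Its groups overlapped, and its log2 fold change was 0.79 ± 0.37 (SE; 95% interval -0.12 to 1.70; limma adjusted p = 0.306). Bbd encodes bombardier, a Toll-induced protein that short Bomanins need in order to be present in hemolymph. Its intensities were 277.1, 1691.2 and 801.3 in control and 326.8, 3238.2 and 2612.7 in Idh-R195H samples, overlapping widely (log2 fold change 0.96 ± 1.09, SE; limma adjusted p = 0.706). IM33, another immune-induced peptide, was at 1241.7, 1856.6 and 2591.3 in control and at 318.1, 4054.8 and 2370.2 in Idh-R195H samples, with a log2 fold change of -0.32 ± 0.97 (SE) whose sign depended on the scaling and on Idh-R195H replicate 1. Over the whole group, replicate 1 was the lowest Idh-R195H array for 9 of 11 genes, Drs, Bbd and IM33 among them, against 31.5% of all probe sets.

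Antimicrobial peptide genes driven mainly by the Imd pathway gave no common direction. Of 6 measured genes, 2 had positive and 4 had negative log2 fold changes (median -0.22). Single arrays decided that median, which was -2.13 without Idh-R195H replicate 2 and 0.42 without control replicate 2. None passed the adjusted threshold in limma, against 3.11% of all probe sets, and 0 had an unadjusted p below 0.05, against 20.2%. DptB, a diptericin, had intensities of 509.9, 7450.7 and 2670.4 in control and 68.1, 1931.2 and 230.0 in Idh-R195H samples, a wide spread in both genotypes (log2 fold change -2.79, 95% interval -6.48 to 0.91). AttD, an attacin, was at -2.57 ± 1.76 (log2 fold change, SE), and at -0.66 without Idh-R195H replicate 3, where its intensity was 4.3.

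Genes of the Toll pathway itself moved in a few members. Of 16 measured genes for recognition of microbes and the extracellular protease cascade, 6 had a positive and 10 a negative log2 fold change (median -0.53), with 1 passing in each direction, against 1.9% upward and 1.21% downward over all probe sets. The serpin Spn88Ea rose from intensities of 1209.7, 870.2 and 679.1 to 6686.9, 6039.3 and 5650.0, with no overlap (log2 fold change 2.77 ± 0.27, SE; limma adjusted p = 0.0103). The protease gene grass, which acts in the cascade upstream of the Toll ligand, went from 548.8, 722.2 and 528.7 to 136.2, 156.9 and 217.8 (log2 fold change -1.82 ± 0.27, SE; limma adjusted p = 0.0312). The Spn88Ea call was lost without control replicate 2 (0.0554) and without any 1 Idh-R195H array, with adjusted p up to 0.0717 (limma). The grass call held without control replicate 1 and was lost on omitting any 1 of the other arrays, with adjusted p up to 0.141 (limma), with centring on array medians (log2 fold change -1.56, adjusted p = 0.0622, limma) and with scaling on the hybridisation controls, where the log2 fold change was -0.86. SPE, the protease that cleaves the ligand spz, had intensities of 27.4, 77.5 and 60.4 in control and 117.9, 152.8 and 166.7 in Idh-R195H samples without passing (limma adjusted p = 0.135). The protease gene gd was dim on all arrays, at 3.7, 1.3 and 2.4 in control and 2.7, 15.8 and 20.7 in Idh-R195H samples.

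Of 11 measured ligands and receptors, 5 had a positive and 6 a negative log2 fold change (median -0.23), where 43.1% of all probe sets were positive. None passed in limma after adjustment, and 4 had an unadjusted p below 0.05, against 20.2% of all probe sets. The ligand gene spz was at 4921.1, 2666.0 and 2198.6 in control and 7291.6, 7971.8 and 6795.4 in Idh-R195H samples, without overlap (log2 fold change 1.26 ± 0.35, SE; limma adjusted p = 0.127). Tl, the Toll receptor, had a log2 fold change of 1.07 ± 0.42 (SE; limma adjusted p = 0.235), and its groups overlapped. The receptor gene 18w and the ligand-like gene spz6 were at -1.28 ± 0.29 and -1.05 ± 0.25 (SE), neither passing.

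Of 18 measured genes of intracellular Toll signalling, 14 had a positive and 4 a negative log2 fold change (median 0.41), and 2 passed upward. Of all probe sets, 43.1% were positive and 1.9% passed upward. Gprk2, a G protein-coupled receptor kinase that takes part in Toll signalling, rose from 405.6, 299.3 and 174.6 to 1549.9, 2370.4 and 2092.7 (log2 fold change 2.83 ± 0.37, SE; limma adjusted p = 0.0240). Traf-like rose from 617.3, 424.7 and 360.7 to 1177.2, 1404.0 and 1475.3 (log2 fold change 1.56 ± 0.27, SE; limma adjusted p = 0.0468). The Gprk2 call was lost without control replicate 2 and without any 1 Idh-R195H array, with adjusted p up to 0.117, and the Traf-like call on omitting any 1 array except control replicate 1, with adjusted p up to 0.185 (limma). The Traf-like call was also lost with quantile normalization (adjusted p = 0.0715, limma) and with centring on array medians (adjusted p = 0.0681, limma). The adaptor gene tub was at -0.97 ± 0.29 (log2 fold change, SE), and mop, which acts in endocytosis of the receptor complex, was at 0.95 ± 0.26, neither passing. The differences in fold change between the Bomanins and these genes were not tested.

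**Figure D5:**
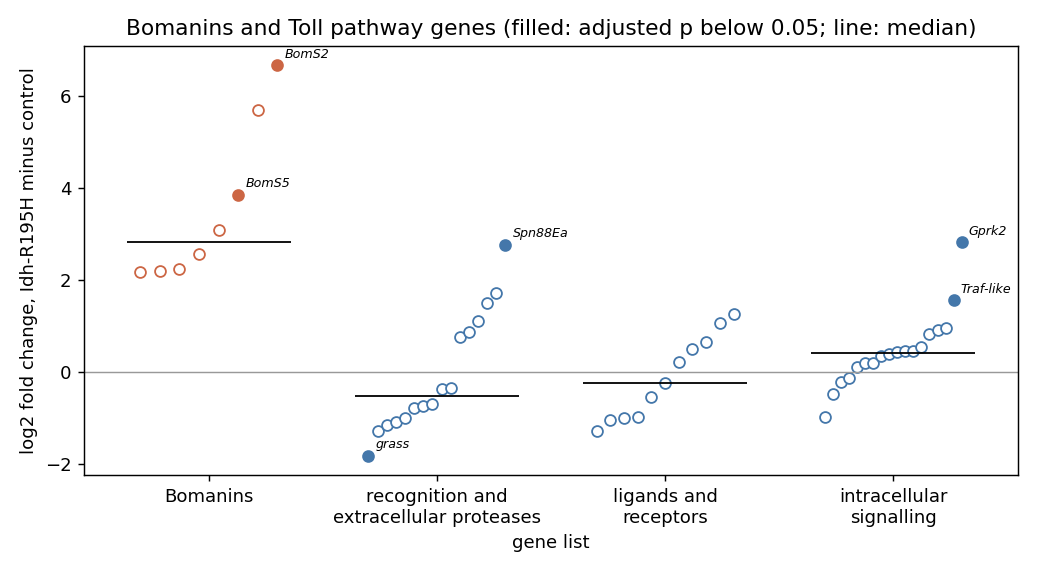
Log2 fold change (Idh-R195H minus control) of each measured gene in the Bomanin group and in 3 groups of Toll pathway genes, with a line at each group's median and filled points where the adjusted p is below 0.05. The Bomanin median is 2.82, and the medians of the pathway groups lie between -0.53 and 0.41.

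The 5 genes whose log2 profile over the 6 arrays was most like that of the Bomanins were heix, CG31220, CG11444, DIP2 and Rnb, out of 8740 genes compared. Their mean Pearson correlation with the 8 Bomanins was between 0.912 and 0.930. These points share the genotype difference and the same 6 arrays, so the correlation is a description. CG31220 was closest in size of change, with intensities of 75.0, 96.3 and 50.3 in control and 220.2, 619.9 and 524.7 in Idh-R195H samples (log2 fold change 2.52 ± 0.48, SE; limma adjusted p = 0.0567). The other 4 shared the shape of the profile at a far smaller scale, with log2 fold changes from 0.23 for CG11444 to 0.44 for heix. None of the 5 passed, against 3.11% of all probe sets.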

How the data were processed

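Deposited values were probe set intensities on a linear scale, 1 per probe set and array, from 3 control and 3 Idh-R195H samples. The authors' values share a trimmed mean of 500.0 per array (2% left out at each end), as read from the values. Per the submitters' processing notes, Partek 6.0 was among the tools. How probes were summarised, and on which genome build, is not given in the sources used here; coordinates are therefore left out.

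Of 18952 probe sets, 183 array controls were left out. The platform annotation, which can be old, supplied names: 13646 probe sets had 1 gene symbol, 402 several and 4721 none, and 13543 of the first matched the RefSeq table (Release 6) by gene identifier. It also gave gene order. Values were transformed as log2(value + 1), and genotypes compared with limma 3.58.1 (R 4.3.3) without a block, two-sided, with Benjamini-Hochberg adjustment over 18769 probe sets and a threshold of 0.05. Alternatives were other scalings, another constant, a filter on dim probe sets, other priors, array weights, the replicate block and leaving out each array. The fit was also run on simulated data with independent noise per probe set and array, so differences shared across an array were left out. A gene with several probe sets is represented by the brightest. Every Bomanin is named; of each list, passing members and up to 4 with the largest absolute log2 fold change. The members and lists were chosen with earlier results of these data known. Likeness was the mean Pearson correlation with the Bomanins over 6 arrays, among genes reaching an intensity of 100. The labels do not state whether the replicate numbers pair the samples. Same-numbered deviations correlated at 0.033, 0.017 and -0.067, which with 3 arrays per group cannot exclude a pairing.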

Additional observations from a re-analysis of the deposited data

How the results depend on the processing

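In 14 alternatives every Bomanin log2 fold change kept its positive sign (BomBc3 in 13, being too dim for the filter), from 1.29 to 8.39, and the Bomanin median ran from 2.45 to 3.79. The number of Bomanins called in limma was 7 with scaling on hybridisation controls, 6 with array weights, which did not converge, and 5 without dim probe sets, where 7 were tested, and with an intensity trend and robust prior. It was 0 to 2 on leaving out 1 array. Where it was 0, 5 or 6 of the 8 had an unadjusted p below 0.05 (limma), against 2577 to 5315 of 18769 probe sets in those fits. The replicate number as a block gave 0 Bomanins called (7 at an unadjusted p below 0.05) and 0 probe sets in all (3088). A block leaves less information for estimating the spread, so this loss of calls does not bear on pairing. With the block the SE fell for BomS2, BomS4, BomS5, BomT2 (0.72 to 0.46), BomT3 and BomBc3. It rose for BomS6 and BomBc2 (1.04 to 1.23). Not every array correlated best with its own number, and whether the numbers pair the samples cannot be told. Probe sets called in all were 6548 with scaling on hybridisation controls (6373 higher, 175 lower), 7489 with array weights (3337 higher, 4152 lower), 888 with a constant of 16, 1297 without dim probe sets, 1253 with the trend and robust prior, and 11 to 870 on leaving out 1 array. Centring on medians gave 318 higher and 111 lower. Scaling on hybridisation controls moved the median of all probe sets to 0.86, with which the Bomanin median of 3.79 compares. It also moved above 0 the medians of the list with Drs, Mtk and the Drsl genes (0.47) and of Imd-induced peptides (0.74). The same held for Toll recognition genes (0.43) and Toll ligands and receptors (0.74). The Imd-induced median was -2.03 with array weights. IM33 turned to 0.64 with this scaling and ran from -1.06 to 0.77 on leaving out 1 array, the latter without Idh-R195H replicate 1, and Bbd to -0.03 with array weights. The cause of these changes was not tested. Cross-hybridisation among related Bomanins could not be examined without probe sequences.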

Other observations

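The 3 nearest measured protein-coding genes on each side of the 2R cluster and of the 3R pair, a choice made after the Bomanin values were known, gave 12 genes. Of these, 0 passed in limma after adjustment, against 3.11% of all probe sets, and 1 had an unadjusted p below 0.05, against 20.2%. A positive log2 fold change was found for 2 of the 12, against 43.1% of all probe sets, and the difference from the Bomanins was not tested. Their log2 fold changes ran from -1.84, for Idgf5 on the BomS6 side of the 2R cluster, to 0.53, for CG13408 on the BomT3 side of the 3R pair. Idgf5, an imaginal disc growth factor gene, had a mean intensity of 222.1 in control, against 79.1 in Idh-R195H samples (limma adjusted p = 0.467).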
